A study of Homo sapiens with 6 samples.

Results

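Bone morphogenetic protein (BMP) signalling and the ID genes were followed through 10 genes, chosen by symbol from the 25545 genes of the expression table. These included the ligand BMP4, the receptors BMPR1A and BMPR2 and the signal transducer SMAD9. The others were the inhibitory SMAD6, the extracellular inhibitor GREM1, and ID1, ID2, ID3 and ID4. The cells were BT-549, an established human triple-negative breast cancer line. RNA was taken 48 h after transfection with a control siRNA (CsiRNA) or an siRNA against the lncRNA NEAT1 (NEAT1siRNA), with 3 libraries in each group, and polyadenylated RNA was sequenced. Both groups were transfected by lipofection, with a single commercial siRNA against NEAT1. The sample titles of both groups also carry the word tet, and no inducible construct is named for them. The cells were cultured in triplicate, but separate transfections are not stated, so the spread between these 3 libraries a group may be technical. The p-values rest on that spread only in part. The test draws the variance of each gene toward that of other genes of like level, so they do not describe a gene's own libraries alone.

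BMP ligands bind a complex of type I receptors, such as BMPR1A, and type II receptors, such as BMPR2. The type II receptor activates the type I receptor, which phosphorylates SMAD1, SMAD5 and SMAD9; these join SMAD4 and enter the nucleus, where the ID genes and the inhibitory SMAD6 are among the best known targets. ID proteins have a helix-loop-helix but no DNA-binding region, and hold E proteins and related basic helix-loop-helix (bHLH) factors away from DNA.

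Libraries held 15789224 to 20341613 reads, as recovered from the deposited values. Levels are given as TPM, a share of transcripts that takes each gene's length into account. Between 64.4% and 68.1% of each library's TPM belonged to 4 short noncoding RNAs (RN7SK, RN7SL1, RN7SL2 and RPPH1), which took only 2.30% to 3.01% of the recovered reads. NEAT1 itself stood at 10.6 ± 2.86 TPM in CsiRNA cells and 3.35 ± 0.885 in NEAT1siRNA cells (SD, n = 3 each), a difference of -1.41 on the log2(TPM + 1) scale (limma adjusted p = 1.21e-07). NEAT1 passed in 17 of 17 alternative analyses, with an adjusted p of up to 0.0310 (no filter on TPM). Its CsiRNA libraries were spread, at 13.4, 7.68 and 10.8 TPM. ESR1 and PGR, the hormone receptor genes, were at most 0.00676 TPM and ERBB2 lay between 5.76 and 6.36, in a line labelled triple-negative. The mesenchymal markers VIM (859 to 1112 TPM), CDH2 (76.0 to 113) and ZEB1 (13.5 to 17.3) were abundant, and CDH2 was lower in NEAT1siRNA cells by -0.34 on the log2 scale (adjusted p = 0.0186). The epithelial markers CDH1, EPCAM, KRT5 and KRT14 did not pass 0.263 TPM in any library. Of the 4 leukocyte markers, PTPRC, CD3E and CD14 did not pass 0.369 TPM and CD68 lay between 23.2 and 29.2. The endothelial markers PECAM1, CDH5 and KDR reached at most 0.0643 TPM. Genes with a mean of at least 1 TPM were tested, 10721 in all, and 1498 (14.0%) passed an adjusted p of 0.05, 535 higher and 963 lower. That split depended on the scaling, with 1158 higher and 954 lower after each library was centred on its median and 1082 higher and 1109 lower after quantile normalization.

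Across these 10 genes, NEAT1siRNA cells had less BMP4 and more SMAD9, while both BMP receptors and the 3 abundant ID genes stayed within the spread of the libraries. BMP4 stood at 75.7% of its CsiRNA level and SMAD9 at 150%. ID4 and SMAD6 were also read higher in every NEAT1siRNA library, at 126% and 120%, but missed the threshold. GREM1 was listed at 0. Of the 9 genes with enough signal to test, 1 passed as higher against 4.99% of all tested genes and 1 as lower against 8.98%, both counts being too small to set against that background. The median change of the 9 genes was 0.03 on the log2 scale, with -0.04 over all genes tested. The CsiRNA and NEAT1siRNA libraries did not overlap for 4 of the 9 (BMP4, SMAD9, SMAD6 and ID4), where 30.3% of all tested genes had groups that did not overlap. Of the 4, 3 were higher and 1 lower in NEAT1siRNA cells, against 11.0% and 19.3% of all tested genes.

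The sequences just before the start sites of these 4 genes are shown because they are the genes whose libraries separated the groups, and because the motifs of the SMADs and of the E proteins can be read in them. Each is the 250 bases before a RefSeq start (GRCh38.p14), written 5′ to 3′ on the gene's own strand, with motif matches in capitals. Searched were GTCTAGAC, a palindromic SMAD-binding element, GGCGCC, a GC-rich element bound by the BMP-activated SMADs, and CAGCTG, an E-box of the kind bound by E protein dimers. Each motif is its own reverse complement, so both strands were read together, and matches of different motifs could overlap.
BMP4 (chr14:53955051-53955300, - strand): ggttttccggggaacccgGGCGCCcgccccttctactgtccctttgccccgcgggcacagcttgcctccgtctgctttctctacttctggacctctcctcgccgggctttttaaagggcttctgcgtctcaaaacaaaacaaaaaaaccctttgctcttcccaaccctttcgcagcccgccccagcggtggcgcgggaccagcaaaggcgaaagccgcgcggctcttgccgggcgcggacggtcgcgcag
SMAD9 (chr13:36920239-36920488, - strand): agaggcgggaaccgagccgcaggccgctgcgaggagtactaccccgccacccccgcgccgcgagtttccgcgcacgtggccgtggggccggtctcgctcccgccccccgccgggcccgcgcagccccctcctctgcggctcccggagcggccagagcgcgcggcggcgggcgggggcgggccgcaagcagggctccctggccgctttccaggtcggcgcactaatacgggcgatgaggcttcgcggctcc
SMAD6 (chr15:66701986-66702235, + strand): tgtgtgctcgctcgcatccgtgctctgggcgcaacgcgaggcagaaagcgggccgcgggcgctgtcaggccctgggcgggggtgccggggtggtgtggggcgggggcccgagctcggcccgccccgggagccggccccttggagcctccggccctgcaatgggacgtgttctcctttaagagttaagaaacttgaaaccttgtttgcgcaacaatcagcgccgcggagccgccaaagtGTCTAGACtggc
ID4 (chr6:19837120-19837369, + strand): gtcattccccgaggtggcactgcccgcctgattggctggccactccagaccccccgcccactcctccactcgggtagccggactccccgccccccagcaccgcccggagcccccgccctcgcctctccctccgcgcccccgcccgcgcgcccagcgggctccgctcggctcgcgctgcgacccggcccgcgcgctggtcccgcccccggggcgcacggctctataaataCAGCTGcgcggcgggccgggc
SMAD6 held the SMAD palindrome 12 bases before its start, a match found in 64 of 35116 upstream windows (0.182%). ID4 held the E-box 21 bases before its start, and CAGCTG was present in 14.0% of all windows. The window shown for BMP4, 1 of its 3 RefSeq starts, held GGCGCC 232 bases before the start, a motif present in 16.4% of windows, and the windows of the other 2 starts held none of the 3 motifs. No capitals appear in the SMAD9 window, which says only that these letters are not in it. All 10 genes had a window, 13 in all. Besides the genes shown, ID2 and BMPR2 held CAGCTG and BMPR2 and GREM1 held GGCGCC. A match is a description of the sequence and not a bound site.

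**Figure D1:**
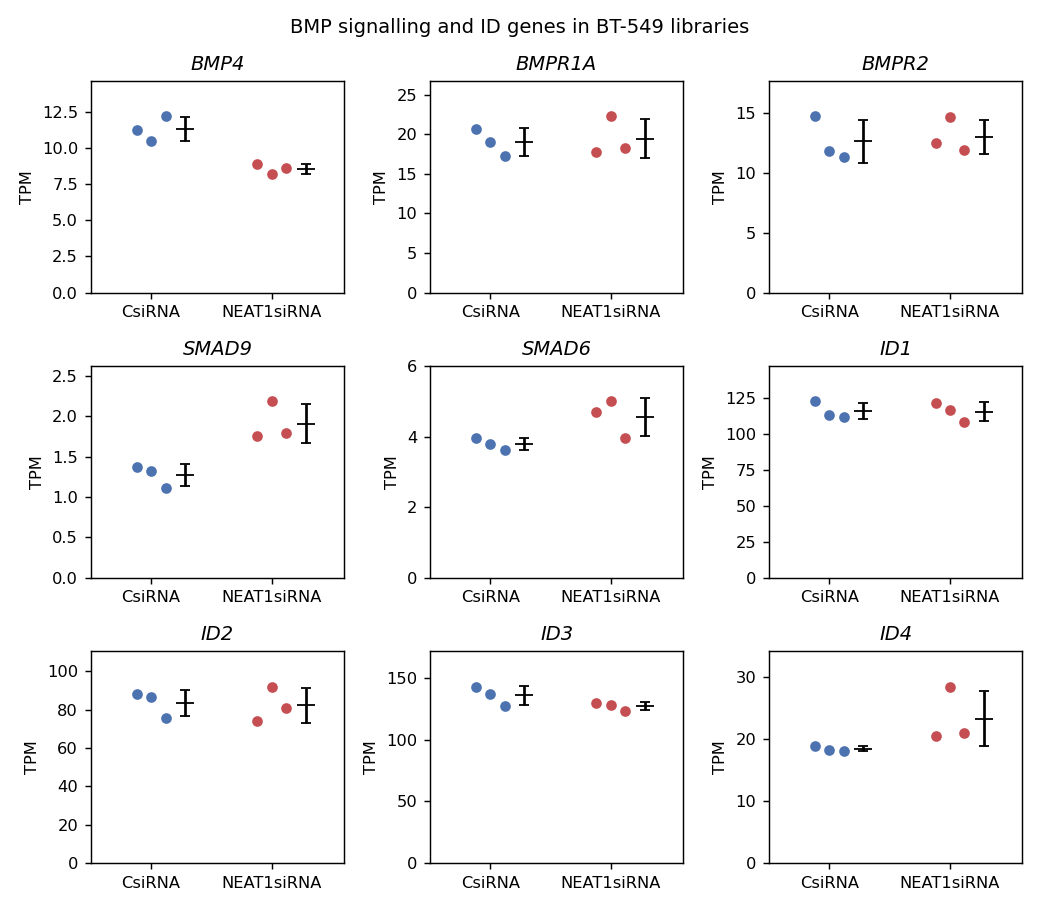
Levels of the 9 detected genes in each library, in TPM on linear axes from 0, with CsiRNA libraries in blue and NEAT1siRNA libraries in red in replicate order; black bars give the mean and SD of 3 libraries. The red points of BMP4 lie below all blue points, those of SMAD9, SMAD6 and ID4 above them (SMAD6 barely), and the groups overlap for ID1, ID2, ID3, BMPR1A and BMPR2.

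BMP4 (chr14:53949736-53958761, - strand) was the most abundant of the BMP and GDF ligand genes listed. It stood at 11.2, 10.5 and 12.2 TPM in the CsiRNA libraries and at 8.86, 8.19 and 8.58 TPM in the NEAT1siRNA libraries. All 3 silenced libraries were below all 3 controls, and they were closer to each other than the controls were. The group levels were 11.3 ± 0.855 and 8.55 ± 0.336 TPM (SD, n = 3 each), a log2 difference of -0.36 (SE 0.093, 95% interval -0.56 to -0.17, adjusted p = 0.00972). Between 427 and 742 recovered reads per library stood behind these values. BMP4 kept its direction in 17 of 17 alternative analyses, between -0.41 and -0.30, and passed the threshold in 15. The call was lost without CsiRNA replicate 3, the highest control (adjusted p = 0.0547), and when genes under 1 TPM were kept in the test (adjusted p = 0.0580). The kit keeps strand, but whether the counting used it is not stated, so reads of BMP4 and of the antisense ENSG00000287156 may not be separated. In bulk RNA, less transcript in every cell and fewer cells with the transcript cannot be told apart.

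Among 12 other BMP and GDF ligand genes, none reached the mean of 1 TPM needed for the test, and BMP10, GDF2 and GDF7 were listed at 0 in all 6 libraries. The most abundant of them was BMP2, the closest relative of BMP4, at 0.936 ± 0.121 TPM in CsiRNA cells and 0.835 ± 0.134 in NEAT1siRNA cells. BMP7, a ligand of the kidney and skeleton, stood at 0.588 ± 0.0895 and 0.812 ± 0.136 TPM, and BMP5 at 0.537 ± 0.108 and 0.498 ± 0.0860 TPM (SD, n = 3 in each group). The libraries of the groups overlapped for all 12.

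BMPR1A and BMPR2, the type I and type II receptors on which BMP4 acts, showed no difference beyond the spread of the libraries. BMPR1A (chr10:86756596-86932825, + strand) was read at 20.7, 19.0 and 17.2 TPM in CsiRNA cells and 17.8, 22.3 and 18.2 TPM in NEAT1siRNA cells. Its highest library was NEAT1siRNA replicate 2 and its lowest CsiRNA replicate 3, with the other values mixed between the groups. The difference was 0.03 on the log2 scale (95% interval -0.18 to 0.24, adjusted p = 0.888). BMPR2 (chr2:202376327-202567751, + strand) was read at 14.7, 11.8 and 11.4 TPM and at 12.5, 14.6 and 11.95 TPM, again with the groups interleaved. Its difference was 0.04 (95% interval -0.17 to 0.26, adjusted p = 0.833). Neither receptor passed in any of 17 alternatives, and both signs turned negative when CsiRNA replicate 3 or NEAT1siRNA replicate 2 was left out. An exon of BMPR2 is shared on the same strand with ENSG00000289490.

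SMAD9, a receptor-activated SMAD, was the least abundant gene of the 9 and the only one that passed as higher. SMAD9 (chr13:36844831-36920887, - strand) was read at 1.37, 1.32 and 1.11 TPM in the CsiRNA libraries and 1.75, 2.18 and 1.79 TPM in the NEAT1siRNA libraries. The groups did not overlap, and NEAT1siRNA replicate 2 stood highest. Recovered reads were 157, 153 and 157 in CsiRNA cells and 216, 284 and 206 in NEAT1siRNA cells. Group levels were 1.27 ± 0.137 and 1.91 ± 0.238 TPM (SD, n = 3 each), a difference of 0.36 (SE 0.10, 95% interval 0.15 to 0.56, adjusted p = 0.0179). At this low level a pseudocount of 1 TPM shrinks the difference, which was 0.55 with a pseudocount of 0.1 and 0.65 with limma-voom on the recovered reads. SMAD9 passed in 13 of 16 alternatives. It no longer passed without NEAT1siRNA replicate 2 (0.29, adjusted p = 0.0589), without CsiRNA replicate 3 (0.31, adjusted p = 0.0815) or with no filter on TPM (adjusted p = 0.0933).

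SMAD6, an inhibitory SMAD that competes with receptor-activated SMADs, moved less. SMAD6 (chr15:66702236-66782849, + strand) was read at 3.97, 3.78 and 3.63 TPM and at 4.70, 5.003 and 3.97 TPM. The lowest NEAT1siRNA library and the highest CsiRNA library were nearly equal, at 3.973 and 3.968 TPM. The difference was 0.21 (95% interval 0.01 to 0.41, adjusted p = 0.162), from 225 to 334 recovered reads per library. SMAD6 passed in 6 of 16 alternatives. These were 3 other scalings of TPM (quantile normalization, median centring, and TPM without the 4 short noncoding RNAs), limma-voom, and both fits with the trend on GC content removed, with differences of 0.26 to 0.31. The level of SMAD6 was 2.86 to 3.26 times that of SMAD9 in CsiRNA libraries and 2.22 to 2.68 times in NEAT1siRNA libraries, with no test made of this ratio.

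The 4 ID genes kept one order in 6 of 6 libraries, ID3 above ID1, ID2 and ID4, and their summed level was 333 to 373 TPM in CsiRNA cells and 334 to 365 TPM in NEAT1siRNA cells. ID1 (chr20:31605283-31606515, + strand) was read at 123, 113 and 112 TPM in CsiRNA cells and 122, 117 and 108 TPM in NEAT1siRNA cells. The groups overlapped throughout, at 116 ± 5.86 and 116 ± 6.58 TPM (SD, n = 3 each). The difference was -0.01 (95% interval -0.19 to 0.17, adjusted p = 0.976), with a sign that turned positive in 8 of 17 alternatives, other scalings among them. ID1 is the ID gene most widely used as a readout of BMP signalling, and 2227 to 2811 reads per library stood behind it.

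ID2 (chr2:8678845-8684461, + strand), which also binds the retinoblastoma protein, was read at 87.9, 86.6 and 75.7 TPM and at 74.0, 92.0 and 80.9 TPM. NEAT1siRNA libraries were both its lowest and its highest. The difference was -0.02 (95% interval -0.22 to 0.18, adjusted p = 0.917), and its sign was positive under median centring, under rescaled TPM and with limma-voom. An exon of ID2 lies opposite ID2-AS1. ID3 (chr1:23557926-23559501, - strand), a partner of E proteins in many cell types, was read at 143, 137 and 128 TPM and at 130, 128 and 124 TPM. Its NEAT1siRNA values sat at the low end of the CsiRNA range and overlapped it. The ID3 difference was -0.09 (95% interval -0.27 to 0.08, adjusted p = 0.529), negative in every alternative and past the threshold in none.

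ID4 (chr6:19837370-19842197, + strand), an ID gene with restricted expression that has been studied in basal-like breast cancer, was the one member of the family whose groups separated. It was read at 19.0, 18.3 and 18.1 TPM in CsiRNA cells and at 20.6, 28.5 and 20.9 TPM in NEAT1siRNA cells. The controls lay within 1 TPM of each other, and NEAT1siRNA replicate 2 stood well above the other silenced libraries. Group levels were 18.5 ± 0.443 and 23.3 ± 4.48 TPM (SD, n = 3 each), a difference of 0.31 (SE 0.11, 95% interval 0.09 to 0.53), and the adjusted p of 0.0540 just missed the threshold. ID4 passed in 9 of 17 alternatives, with differences of 0.16 to 0.39. Without NEAT1siRNA replicate 2 the difference was 0.16 (adjusted p = 0.250). With no filter on TPM its SE was 0.12 and the limma adjusted p was 0.247. The ratio of ID3 to ID4 was 7.56, 7.52 and 7.04 in CsiRNA libraries and 6.34, 4.51 and 5.92 in NEAT1siRNA libraries, with no overlap and no test.

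**Figure D2:**
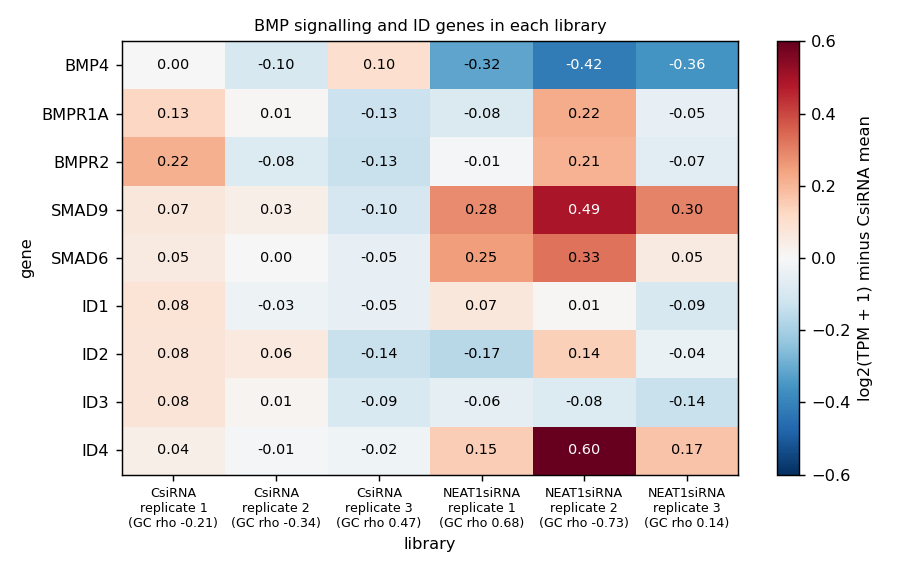
Each cell gives log2(TPM + 1) of a gene (rows) in a library (columns) minus the gene's mean over the 3 CsiRNA libraries. Colours run from blue (lower) to red (higher). Under each library stands a rank correlation with GC content across 10424 genes. It uses each gene's deviation from the mean of the library's own group, not the deviation shown in the cells. BMP4 is blue in all 3 NEAT1siRNA columns, and NEAT1siRNA replicate 2 (GC rho -0.73) holds the largest positive values, 0.60 for ID4 and 0.49 for SMAD9.

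NEAT1siRNA replicate 2 held the highest value of BMPR1A, SMAD9, SMAD6, ID2 and ID4 and the lowest of BMP4. In the same library, deviations of genes from their mean in the library's own group ran against GC content most steeply. The Spearman rho was -0.73 across 10424 genes (genes are not independent replicates). NEAT1siRNA replicate 1 had a rho of 0.68 and the other libraries lay between -0.34 and 0.47. These values describe spread within each group. In canonical transcripts GC content was 39.4% for BMPR1A, 41.4% for ID4, 42.5% for ID2 and 43.2% for SMAD9. For SMAD6, also highest in NEAT1siRNA replicate 2, it was 58.8%, and for BMP4 54.0%. After each library's dependence on GC content and length was removed, the differences were 0.34 for ID4 (adjusted p = 0.00363), 0.40 for SMAD9 (adjusted p = 0.00120), 0.27 for SMAD6 (adjusted p = 0.0109) and -0.31 for BMP4 (adjusted p = 0.00462). In that fit 4 of the 9 genes passed, with 33.3% of all tested genes. The same 4 genes passed with limma-voom (23.0% of all tested genes), after median centring (19.7%) and with TPM rescaled without the 4 short noncoding RNAs (16.8%), and 0 of the 9 passed with no filter on TPM (2.73%). ID1, ID2, ID3, BMPR1A and BMPR2 passed in none of these.

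**Figure D3:**
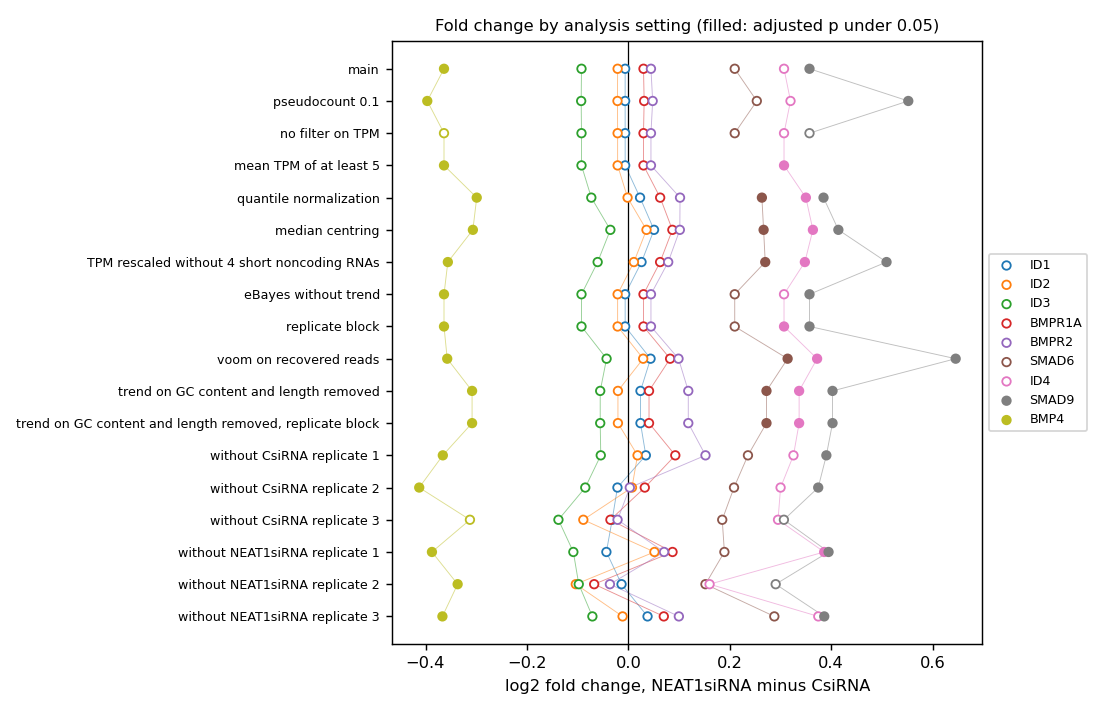
The log2 fold change (NEAT1siRNA minus CsiRNA, x axis) of the 9 tested genes under the main analysis and each of 17 alternatives (rows); filled points passed an adjusted p of 0.05. BMP4 stays between -0.41 and -0.30, SMAD9 between 0.29 and 0.65 and ID4 between 0.16 and 0.39, while ID1, ID2, BMPR1A and BMPR2 straddle 0 and are never filled.

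Ordered by TPM, which allows levels to be compared between genes, the 9 genes ran from ID3 at the top to SMAD9 at the bottom in both groups. In CsiRNA cells ID3 (128 to 143), ID1 (112 to 123) and ID2 (75.7 to 87.9) were separated from each other. ID4 (18.1 to 19.0) and BMPR1A (17.2 to 20.7) overlapped, as did BMPR2 (11.4 to 14.7) and BMP4 (10.5 to 12.2), and SMAD6 and SMAD9 followed apart. In NEAT1siRNA cells ID4 (20.6 to 28.5) and BMPR1A (17.8 to 22.3) still overlapped, but BMPR2 (11.95 to 14.6) and BMP4 (8.19 to 8.86) no longer did.

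GREM1 (chr15:32718004-32745106, + strand) encodes gremlin, a secreted protein that binds and blocks BMP2 and BMP4. The gene was listed at 0 TPM in all 6 libraries, so no fold change was formed. None of 18 housekeeping genes was at 0, the lowest value among them being 7.14 TPM. A count of 0 allows up to 3 reads in a library, a limit that covers counting error only. An exon of GREM1 lies opposite GREM1-AS1.

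To set these genes in their pathway, 57 further genes were listed by role, of which 24 could be tested and 8 were listed at 0 in every library. No gene of the 24 passed as higher and 3 passed as lower (RGMB, SMURF2 and BMPER), where 8.98% of all tested genes passed as lower. The median change over the 24 was -0.06 on the log2 scale, with -0.04 over all genes tested, and 7 had groups that did not overlap, close to the 30.3% of all tested genes. An unadjusted p under 0.05 was reached by 6 of the 24, with 27.4% of all tested genes. The 5 genes called by limma-voom, RUNX2 as higher and the same 3 with SMURF1 as lower, compare with 23.0% of all tested genes called in either direction. The 3 genes sit at different levels of the pathway, in the co-receptors, the SMAD regulators and the extracellular modulators.

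RGMB, also called DRAGON, is a membrane-anchored co-receptor that binds BMP2 and BMP4. RGMB (chr5:98768650-98798643, + strand) was read at 34.1, 31.9 and 30.002 TPM in CsiRNA cells and 20.1, 21.1 and 18.4 TPM in NEAT1siRNA cells. The gap between the groups was wider than the range within either. Group levels were 32.0 ± 2.04 and 19.9 ± 1.34 TPM (SD, n = 3 each), a fall to 62.1%, with a difference of -0.66 (SE 0.093, adjusted p = 2.34e-05) that passed in 17 of 17 alternatives. Exons of RGMB lie opposite RGMB-AS1 and ENSG00000279232. Among 8 other receptors and co-receptors, ACVR1, BMPR1B and ACVR2A were tested and did not pass, with differences of -0.12, -0.05 and 0.11. Of the 5 not tested, ACVR2B and ENG were read lower and RGMA higher with no overlap between the groups. RGMA rested on 11, 11 and 17 recovered reads in CsiRNA cells and 33, 28 and 17 in NEAT1siRNA cells. The share of genes without overlap is known only for tested genes, at 30.3%. ACVR2B, ENG and RGMA are named here after their values were seen.

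SMURF2, a ubiquitin ligase that marks SMADs and their receptors for degradation, fell to 64.2%. SMURF2 (chr17:64542282-64662307, - strand) was read at 38.3, 35.6 and 33.4 TPM and at 22.5, 25.8 and 20.6 TPM. Again the groups stood clear of each other. The difference was -0.62 (SE 0.097, adjusted p = 8.26e-05), past the threshold in 17 of 17 alternatives, and an exon lies opposite CEP95. SMURF1, the related ligase first described for its action on the BMP SMADs, was read at 8.999 ± 1.03 and 7.26 ± 0.577 TPM (SD, n = 3 each). Its difference of -0.27 missed the threshold (adjusted p = 0.0668) and passed in 10 of 17 alternatives. The SMADs that share the pathway with SMAD9 did not pass, with 0.12 for SMAD1, 0.01 for SMAD5 and 0.11 for the common partner SMAD4. SMAD7, the other inhibitory SMAD, was read at 4.71 ± 0.210 and 4.01 ± 0.313 TPM (SD, n = 3 each), a difference of -0.19 (adjusted p = 0.201) that is opposite in sign to that of SMAD6. The difference between SMAD6 and SMAD7 was not tested, and SMAD7 was chosen for mention after its value was seen. LEMD3, SKI and RNF111, which bind SMADs or act on them in the nucleus, had differences of -0.12, 0.02 and 0.05 and did not pass.

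Of 17 antagonists and extracellular modulators besides GREM1, 8 were tested and BMPER passed. BMPER, a secreted protein that binds BMPs and can both block and help them, was read at 3.41, 2.90 and 2.58 TPM and at 1.89, 2.13 and 1.92 TPM. All silenced libraries were below all controls. The levels were 2.96 ± 0.421 and 1.98 ± 0.132 TPM (SD, n = 3 each), a fall to 66.8% with a difference of -0.41 (SE 0.10, adjusted p = 0.00734). BMPER (chr7:33904308-34156427, + strand) passed in 14 of 16 alternatives, and not without CsiRNA replicate 1 (-0.33, adjusted p = 0.0646) or with no filter on TPM (adjusted p = 0.0913). The abundant modulators did not pass. FSTL1 was read at 592 ± 38.3 and 594 ± 17.8 TPM, CRIM1 at 66.0 ± 5.95 and 60.3 ± 11.0, BAMBI, a decoy receptor, at 41.0 ± 5.002 and 39.9 ± 2.89, and TWSG1 at 33.4 ± 3.60 and 39.2 ± 7.97 (SD, n = 3 each). FSTL3 and CHRDL1 had differences of -0.16 and -0.06. FST, or follistatin, which binds activins and BMPs, was the antagonist nearest to the threshold without passing, at 3.16 ± 0.0994 and 2.47 ± 0.320 TPM (SD, n = 3 each). Its groups did not overlap, and its difference of -0.27 (adjusted p = 0.0723) passed in 2 of 16 alternatives. CHRDL2, not tested, was read higher without overlap, at 0.607 ± 0.130 and 0.814 ± 0.0514 TPM (SD, n = 3 each). FST and CHRDL2 are named after their values were seen. NOG and CHRD, the classical antagonists noggin and chordin, did not pass 0.260 TPM in any library.

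**Figure D4:**
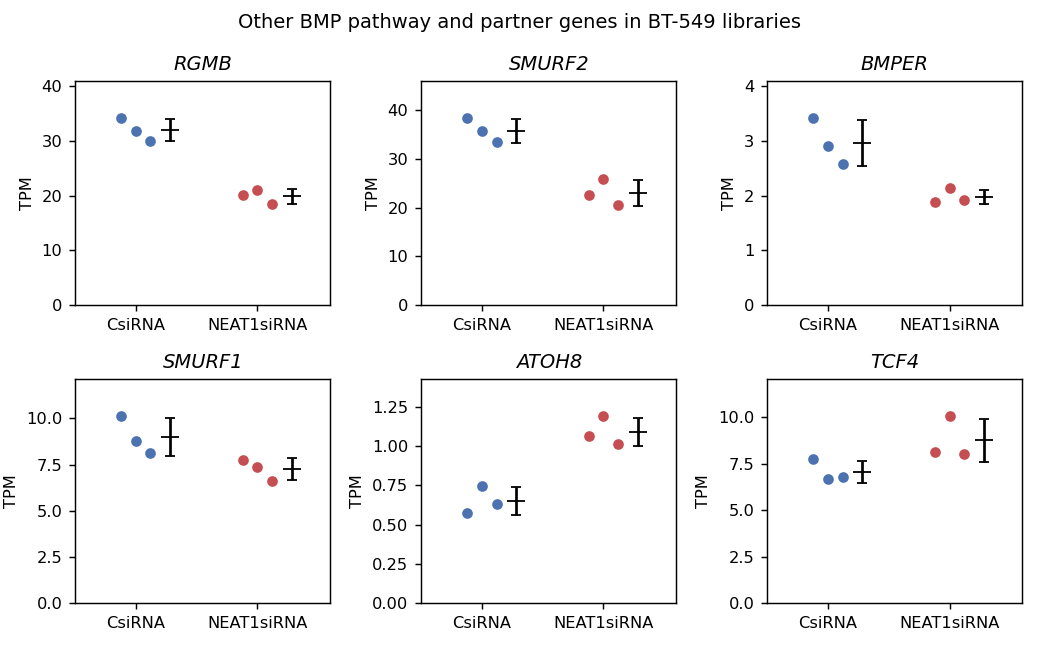
Levels in TPM (linear axes from 0) of RGMB, SMURF2 and BMPER, which passed as lower, and of SMURF1, ATOH8 and TCF4, which did not pass or were not tested; points are libraries in replicate order, CsiRNA blue and NEAT1siRNA red, and bars give mean and SD of 3. The NEAT1siRNA libraries lie below the CsiRNA libraries for RGMB, SMURF2, BMPER and SMURF1 and above them for ATOH8 and TCF4. Every gene shown has groups that do not overlap, which held for only 7 of the 24 other pathway genes tested, so the panels are not typical of the lists.

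Among 9 target genes other than the ID genes and SMAD6, RUNX2 and DLX2 were tested and neither passed. RUNX2, the master factor of bone formation, was read at 5.46 ± 0.356 and 6.69 ± 0.824 TPM (SD, n = 3 each), a difference of 0.25 (adjusted p = 0.0981) that passed in 6 of 17 alternatives. DLX2 differed by -0.11 (adjusted p = 0.537). ATOH8, a bHLH factor known as a BMP target in liver and endothelium, fell short of the mean of 1 TPM. It was read at 0.574, 0.747 and 0.634 TPM in CsiRNA cells and 1.07, 1.19 and 1.02 TPM in NEAT1siRNA cells, 167% of the control level, from 69, 91 and 94 and from 138, 163 and 123 recovered reads. The groups did not overlap. In the 2 alternatives that could include it, ATOH8 passed with 0.55 when TPM was rescaled without the short noncoding RNAs (adjusted p = 0.0135) and 0.34 with no filter on TPM (adjusted p = 0.0444). MSX1 and DLX3 were also read higher without overlap, at means under 1 TPM, and are named after their values were seen. MSX1 rested on 15, 11 and 22 recovered reads in CsiRNA cells and 22, 27 and 23 in NEAT1siRNA cells. DLX3 rested on only 1, 1 and 2 reads and on 7, 2 and 3. The share of genes without overlap was not computed for genes below the test's mean of 1 TPM. HAMP, which encodes the iron hormone hepcidin, was listed at 0.

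The proteins that ID proteins bind were listed as 11 genes, of which 5 were tested. None passed, where 14.0% of all tested genes did, and 1 had an unadjusted p under 0.05, where 27.4% did. With limma-voom 3 of them were called higher (TCF3, TCF4 and TWIST1), against 11.0% of all tested genes. All 5 differences were positive, with a median of 0.18 on the log2 scale, where the median over all genes tested was -0.04. The share of all genes with a positive difference was not computed, and 5 genes are too few to set against it. The largest was that of TCF4, an E protein, at 7.73, 6.65 and 6.80 TPM in CsiRNA cells and 8.15, 10.1 and 8.04 TPM in NEAT1siRNA cells. Its groups did not overlap, the highest library was again NEAT1siRNA replicate 2, and the difference was 0.27 (adjusted p = 0.0736). TCF3, which encodes the E proteins bound by ID1 to ID3 in many cells, differed by 0.19 (adjusted p = 0.199), and TWIST1, a mesenchymal bHLH factor, by 0.18 (adjusted p = 0.235). TCF12 and TWIST2 differed by 0.07 and 0.08. Without NEAT1siRNA replicate 2 the differences were 0.18 for TCF4, 0.17 for TCF3, 0.09 for TWIST1, 0.02 for TCF12 and 0.15 for TWIST2. The 6 others, HAND and ASCL genes among them, did not pass 0.379 TPM in any library.

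**Figure D5:**
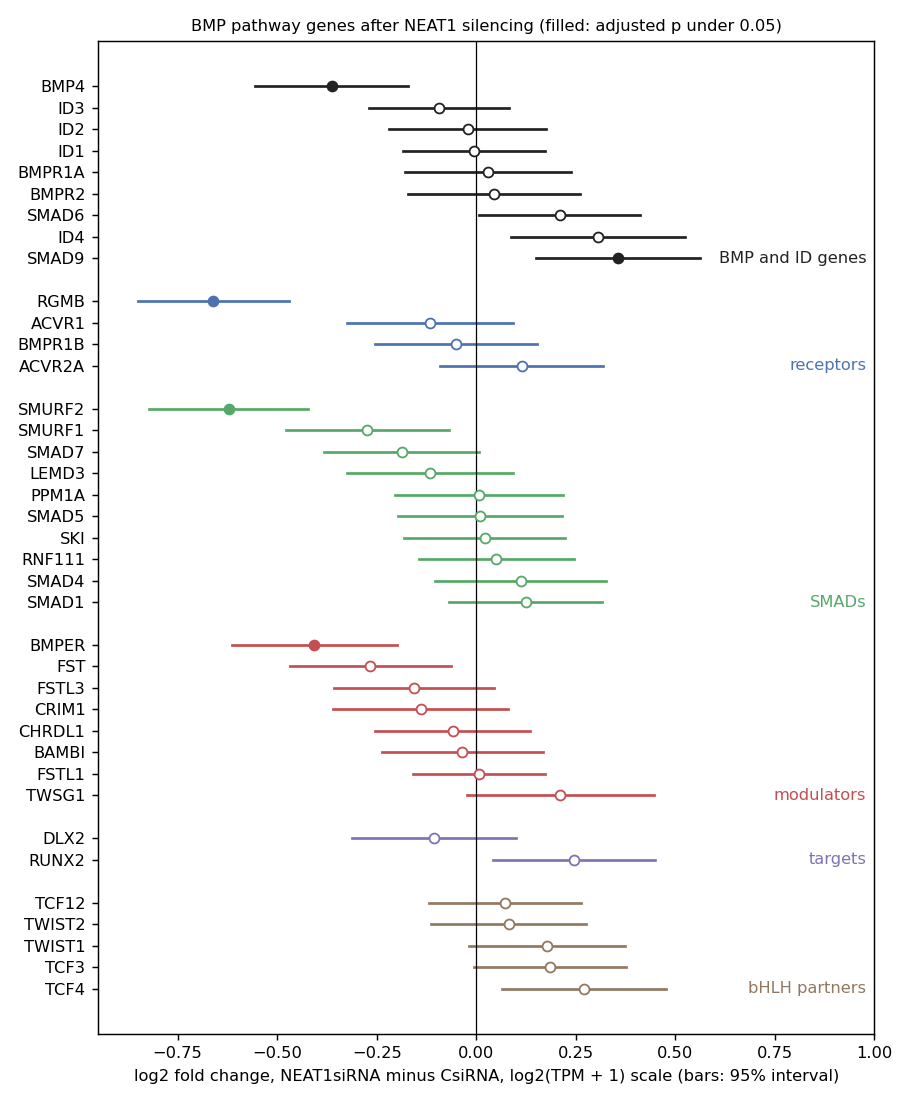
The log2 fold change (NEAT1siRNA minus CsiRNA on the log2(TPM + 1) scale, x axis) of each tested gene, grouped and coloured by role, with its 95% interval; filled points passed an adjusted p of 0.05. BMP4, RGMB, SMURF2 and BMPER are filled to the left of 0 and SMAD9 to the right, and the intervals of ID1, ID2, ID3, BMPR1A and BMPR2 cross 0.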

How the data were processed

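RNA-seq of BT-549 cells, 3 CsiRNA and 3 NEAT1siRNA libraries, was made with TruSeq Stranded mRNA. According to the methods and the submitters' notes, the authors aligned reads to GRCh38 with STAR and compared groups with DESeq2; the tool that gave TPM, and whether counting used strand, are not given in the sources used here. The authors deposited TPM per gene and library and, for 19392 genes, a mean normalized count (unit: signal), here called the authors' mean value. Their columns of fold changes and p-values were not used. TPM is not a count, so DESeq2 was not the main test. All genes averaging 1 TPM or more were fitted with limma 3.58.1 (R 4.3.3; lmFit, eBayes with trend) on log2(TPM + 1), two-sided, with Benjamini-Hochberg adjustment over all genes tested and a threshold of 0.05. Fold changes on this scale understate those of low genes. The fit was run on simulated data with known changes. Those data were drawn without GC-linked differences between libraries, so the run cannot show how the fit behaves with such differences.

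Reads were recovered from TPM and the authors' mean normalized count, and limma-voom on them is an alternative. Within 0.05 read, 99.8% of values came out whole for genes with a mean under 5 and 98.4% from 5 to 50. The shares were 77.6% from 50 to 500 and 21.8% above, so reads given for abundant genes are rounded estimates. The other alternatives were a pseudocount of 0.1, no filter or a mean of at least 5 TPM, quantile normalization, median centring, TPM rescaled without the 4 short noncoding RNAs, eBayes without trend, the replicate block, removal of a spline (4 degrees of freedom) on GC content and length with and without the block, and leaving out each library. Tables were handled in Python 3.11.15. Gene positions are from GENCODE v44 (GRCh38), matched by current symbol for 22278 genes and by older symbol for 783, with 2484 unmatched. Named were all 10 genes, NEAT1, list genes past the threshold, those with a mean of at least 5 TPM by symbol, and the 3 most abundant where none passed; any other list gene named was chosen after its values were seen. The genes and lists were chosen with earlier results of these data known. With 3 libraries a group, an exact permutation test of 1 gene cannot go below p = 0.1, so none was used. No 3-library group was tested for outliers.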

Additional observations from a re-analysis of the deposited data

How the results depend on the processing

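BMP4, SMAD9, RGMB, SMURF2 and BMPER kept their direction in all alternatives that could be fitted, 17 a gene (16 for SMAD9 and BMPER, whose means are under 5 TPM). For 23 genes recomputed under every setting (the 9 tested BMP and ID genes, NEAT1, RGMB, SMURF1, SMURF2, BMPER, FST, RUNX2, SMAD1, SMAD7 and the 5 tested ID partners), 311 values kept direction and side of the threshold, 50 newly passed, 7 no longer passed and 18 changed sign. Of the BMP and ID genes, 2 passed in the main analysis, 0 with no filter on TPM, and 4 (BMP4, SMAD9, ID4 and SMAD6) with quantile normalization, median centring, rescaled TPM, limma-voom, the trend on GC content and length removed, and that trend with the replicate block. Leaving out 1 library gave 0 to 3, with 0 without CsiRNA replicate 3 and 1 (BMP4) without NEAT1siRNA replicate 2. Of 24 other pathway genes, 3 passed in the main analysis, 6 with quantile normalization or median centring and 5 with limma-voom. With the trend removed 9 passed, with the block added 8, and leaving out 1 library gave 2 to 6. Rescaled TPM gave 6 of 32 pathway genes tested, ATOH8 among them. With no filter 3 of 49 passed, RGMB and SMURF2 as lower and ATOH8 as higher, and BMPER did not. Of the ID partner genes 0 passed in the main analysis, 2 with quantile normalization, 3 with median centring, 1 with rescaled TPM, 3 with limma-voom and 2 in both fits with the trend removed, and 0 in each fit with 1 library left out. Of all genes, 1498 passed in the main analysis, 505 with no filter, 2191 with quantile normalization, 2112 with median centring and 2059 of 12252 with rescaled TPM. With limma-voom 2462 passed, with the trend removed 3468 and with the block added 3390. Calls over all genes thus rose in the same settings that called 4 of the BMP and ID genes. With 1 library left out 759 to 2083 passed, the low counts being 759 without CsiRNA replicate 1 and 838 without NEAT1siRNA replicate 3. ID1 changed sign to 0.023 with quantile normalization, 0.051 with median centring, 0.026 with rescaled TPM, 0.044 with limma-voom and 0.024 in both fits with the trend removed, and ran from -0.043 to 0.038 with 1 library left out. ID2 changed sign to 0.036 with median centring, 0.011 with rescaled TPM and 0.029 with limma-voom, and ran from -0.10 to 0.051. BMPR2 ran from -0.036 to 0.15 and BMPR1A from -0.067 to 0.092. The cause of these shifts was not tested. With no filter the test covered 18531 genes in place of 10721, and the unadjusted limma p-values changed as well. They went from 0.00150 to 0.00555 for SMAD9 and from 0.000642 to 0.00196 for BMP4.

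The replicate numbers are shared by the groups, and whether they pair the samples is not stated. Deviations of same-numbered libraries from their group means correlated at -0.03, 0.25 and -0.11. Differently numbered libraries ran from -0.40 to 0.40, so these correlations cannot decide whether the numbers pair the samples. With the replicate block 1640 genes passed, 3 of the BMP and ID genes (ID4 added, adjusted p = 0.0488), 4 of the other pathway genes and 0 of the ID partners. Of the 9 tested BMP and ID genes, SMAD9 (153 to 284 reads a library) and SMAD6 (225 to 334) had the fewest reads.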
